A study of Mus musculus with 6 samples.

Results

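Genes of the Notch pathway were examined in RNA sequencing of human leukemic cells grown in mice. The set consists of the receptors NOTCH1, NOTCH2, NOTCH3 and NOTCH4, the nuclear factors RBPJ and MAML2, and the pathway genes DTX1, DTX4, HES1 and HES4, and its members are the rows of the deposited table that carry these symbols. Of the 10 symbols, 7 had a row among 13892 genes. NOTCH3, HES1 and HES4 had none and were not analysed here. All 7 passed the filter on low values (at least 1 CPM, that is, reads scaled by library size, in at least 3 libraries) and are described below. NOTCH4 reached 1 CPM in bulk replicate 2 only, so it met the filter because of its LSC libraries. Its call was the same with no filter.

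The cells came from 3 moribund NSG mice, an immunodeficient strain that accepts human grafts, each engrafted from a separate transduction of human hematopoietic stem cells with NPM1c. NPM1c is the mutant nucleophosmin found in acute myeloid leukemia (AML), and every library of both groups comes from cells carrying it. From the marrow of each mouse, the sorter collected a bulk leukemic population, positive for GFP and CD33, and a leukemic stem cell (LSC) population, positive for CD123 as well, with GFP standing in for NPM1c. This gave 3 bulk and 3 LSC libraries, and a shared replicate number means a shared mouse. The bulk gate did not exclude CD123, so bulk cells may include cells of the LSC gate. The promoter that drove NPM1c and the age of the mice are not given in the sources used here. The marrow also held host mouse cells, and the share of reads from them was not measured.

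Notch receptors are membrane proteins that are cut after binding a ligand of the Jagged or Delta family on a neighbouring cell. The released intracellular domain enters the nucleus, joins the DNA-binding protein RBPJ and a coactivator of the Mastermind family (MAML), and switches on targets such as the HES repressors and DTX1. Deltex proteins (DTX) are ubiquitin ligases, some of which act on Notch receptors. In blood formation, NOTCH1 is known for directing progenitors to the T cell lineage and NOTCH2 for roles in marginal zone B cells and dendritic cells.

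Libraries held 10669560 to 14933494 reads, with 27.2% to 70.0% of them on the MTRNR2L genes, whose sequence derives from mitochondrial ribosomal RNA. Bulk replicate 1 had the highest such share and the lowest normalized library size, and 3 reads there correspond to 0.514 CPM, against 0.190 to 0.254 CPM in the other libraries. IL3RA, which encodes CD123, had a mean of 2.01 CPM in bulk and 108 CPM in LSC, as the sort would give. CD33 overlapped between the groups, with log2 differences of 0.61, -0.03 and -3.46 in mice 1, 2 and 3. In mouse 3 CD33 had 204 reads in bulk and 16 in LSC. Of 9 stem and progenitor cell markers, limma called 0 higher or lower in LSC, and voom 0. At an unadjusted p under 0.05, 1 was higher and 4 lower, against 10.2% and 10.1% of all genes. With the mouse as a block, GATA2 was higher and CD34, KIT and PROM1 were lower, against 8.25% and 7.71% of all genes. Over 10 lists, all markers called higher in LSC without the block were plasmacytoid dendritic cell markers (16 of 18, against 2.71% of all genes). That count includes IL3RA, which the sort used. It also includes LILRA4, GZMB, PTGDS and PACSIN1, which met the filter on low values only through LSC, so it is a description. With the block GATA2, BLNK, CLEC10A and LAMP3 of other lists were higher too. Marker values stand beside the genes they move with. In sorted populations, fewer cells of a type and less RNA per cell cannot be told apart.

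**Figure D1:**
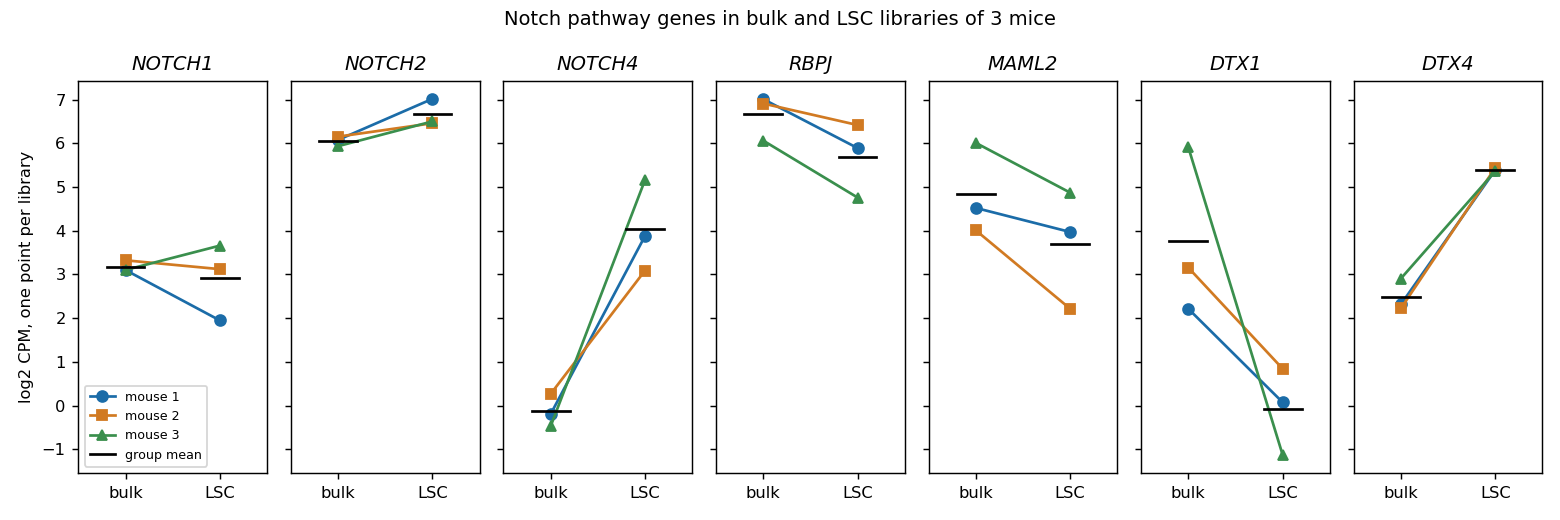
Level of the 7 Notch pathway genes in each library as log2 CPM (y axis), bulk on the left and LSC on the right of each panel. Points are libraries, coloured lines join the libraries of a mouse and black bars are group means. NOTCH4 and DTX4 lie higher in every LSC library than in every bulk library, DTX1 lies lower, and the NOTCH1 lines run in different directions. Levels are not scaled by gene length, so heights in different panels are not comparable.

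The question put to the data was whether the genes of the set differ between LSC and bulk. NOTCH4 and DTX4 were higher in LSC, and no member was lower at an adjusted p of 0.05 by limma, a linear model fitted over all 13755 genes that passed the filter. In the same test 2.71% of all genes were higher in LSC and 1.33% lower. NOTCH4 met the filter because of LSC, so its call is a description and adds no support to the count. At an unadjusted p under 0.05, 2 members were higher and 1, DTX1, was lower, against 10.2% and 10.1% of all genes. Voom, a limma variant run on reads recovered from the values, also called 2 higher and 0 lower, against 2.31% and 1.15% of all genes. When the mouse was entered as a block, so that the populations were compared within each mouse, the same 2 were higher and DTX1, RBPJ and MAML2 were lower, against 8.25% higher and 7.71% lower over all genes. Groups did not overlap for 3 members with LSC higher (NOTCH2, NOTCH4 and DTX4) and for 1 with LSC lower (DTX1), while 13.2% and 11.9% of all genes did the same. The median log2 difference of the 7 members was -0.27, beside -0.0036 over all genes, and the members lay on both sides of 0. Without bulk replicate 1, the library with the fewest reads outside the MTRNR2L genes, 2 members were higher and 1, DTX1, was lower. Of all 13755 genes, 204 were higher and 38 lower in that fit.

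Of the 3 receptors with a row, NOTCH4 passed the test. It is best known from endothelial cells. Bulk libraries of mice 1, 2 and 3 held 0.856, 1.19 and 0.704 CPM of NOTCH4, which rest on 5, 14 and 11 reads. The LSC libraries held 14.7, 8.50 and 35.7 CPM, from 199, 134 and 490 reads. Every LSC library stood above every bulk library, with the LSC library of mouse 3 highest and its bulk library lowest. The rise was 17.2-fold, 7.16-fold and 50.8-fold within mice 1, 2 and 3. The limma log2 difference was 4.17 (SE 0.62, 95% interval 2.78 to 5.56, adjusted p = 0.00765, n = 3 per group), or 18.0-fold, and NOTCH4 ranked 110 among 13755 genes by increase. The blocked fit gave an adjusted p of 0.00303. By voom without the block the adjusted p was 0.0499, just under the threshold. The call was lost when both libraries of mouse 1 were left out (log2 difference 4.22, adjusted p = 0.13), though not with the block on the same 2 mice (adjusted p = 0.0173). It was kept with each library left out in turn, where the difference ranged from 3.61 to 4.65.

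NOTCH2 and NOTCH1 did not pass. NOTCH2 stood at 67.5, 71.1 and 61.1 CPM in the bulk libraries of mice 1, 2 and 3. In the LSC libraries it stood at 129, 87.9 and 90.4 CPM. The lowest LSC library lay above the highest bulk library, and the differences within mice were small, at 1.92-fold, 1.24-fold and 1.48-fold. The log2 difference was 0.60 (SE 0.28, 95% interval -0.02 to 1.23, adjusted p = 0.26), and 0.0928 was its adjusted p with the block. On mice 1 and 2 alone the blocked fit called it (log2 difference 0.62, adjusted p = 0.0436). That fit called 1747 genes higher and 1567 lower, against 1135 and 1060 with every mouse. The same fit without mouse 3 is cited for RBPJ, MAML2 and DTX1 below. NOTCH2NL, a partial copy of NOTCH2 with near-identical sequence, had a mean of 173 ± 36.7 CPM in bulk and 350 ± 19.1 CPM in LSC (SD, n = 3). Its log2 difference of 1.04 missed the threshold (adjusted p = 0.0633) and passed with the block (0.0084, lost without mouse 2 at 0.0852). Reads of the shared part can be assigned to either gene, so the values of both are uncertain.

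NOTCH1 had no common direction. Its bulk libraries lay close together at 8.56, 9.99 and 8.57 CPM, on 50, 118 and 134 reads. Its LSC libraries spread from 3.84 CPM in mouse 1 through 8.69 in mouse 2 to 12.6 in mouse 3. Mouse 1 and mouse 3 therefore moved in opposite directions, with log2 differences of -1.15 and 0.56, and mouse 2 lay between at -0.20. The log2 difference over all libraries was -0.27 (SE 0.49, 95% interval -1.37 to 0.84, adjusted p = 0.797). Without the LSC library of mouse 1 the value turned to 0.21.

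**Figure D2:**
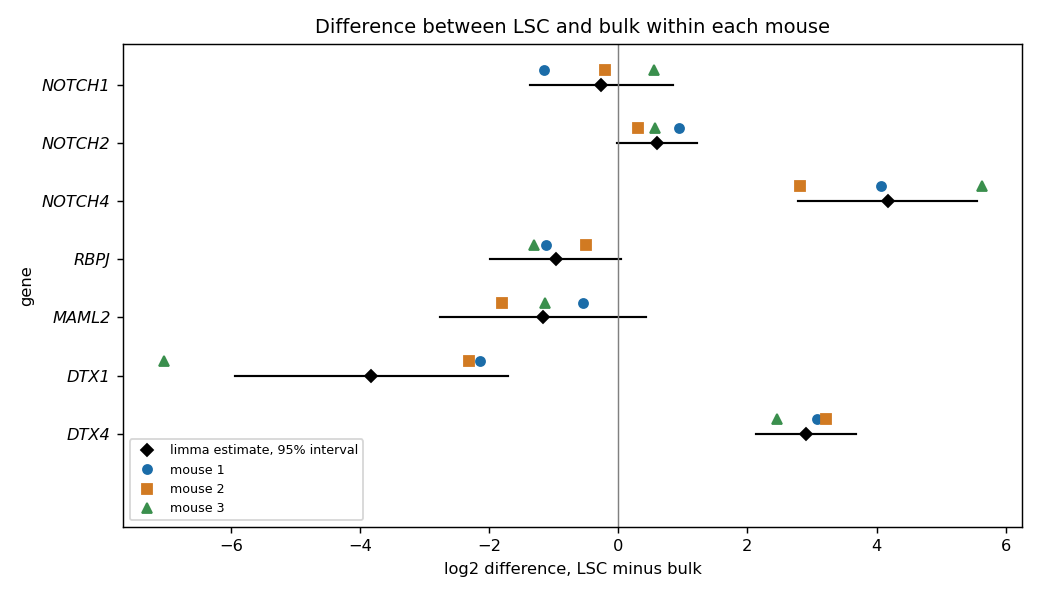
Log2 difference of LSC minus bulk for each gene (x axis). Coloured symbols are the 3 mice, black diamonds the limma estimate without a block and black lines its 95% interval. All 3 mice lie on the same side of 0 for NOTCH2, NOTCH4, RBPJ, MAML2, DTX1 and DTX4, and on both sides for NOTCH1; DTX1 of mouse 3 stands far out at -7.03.

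RBPJ, the DNA-binding partner of all Notch receptors, was lower in the LSC library of each mouse but its groups overlapped. The bulk libraries of mice 1, 2 and 3 held 129, 120 and 66.7 CPM. The LSC libraries held 59.3, 85.4 and 27.1 CPM. Mouse 3 had the lowest level in both populations, and the LSC library of mouse 2 lay above the bulk library of mouse 3. Of the variance of RBPJ over the 6 libraries, 53.0% lay between mice and 41.7% between populations, against 38.2% and 41.6% over all genes. These are shares of sums of squares. With 3 mice and 2 populations the mouse share has more degrees of freedom, so the shares are not directly comparable with each other. The unblocked log2 difference of -0.97 (SE 0.45) did not pass (adjusted p = 0.265). In the blocked fit the SE was 0.23 and the adjusted p 0.0259. The blocked call was lost on 2 mice when mouse 1 (adjusted p = 0.162) or mouse 2 (0.0657) was left out, and kept without mouse 3 (0.00598). RBPJ has processed pseudogenes of similar sequence, which could take part of its reads.

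MAML2, a coactivator of the Mastermind family, varied more between mice than between populations. It stood at 22.9, 16.1 and 64.4 CPM in bulk and at 15.7, 4.63 and 29.2 CPM in LSC of mice 1, 2 and 3. Mouse 3 was highest and mouse 2 lowest in both populations, so the groups overlapped although LSC was the lower library in 3 of 3 mice. Between mice lay 69.2% of the variance of MAML2 and between populations 25.8%, against 38.2% and 41.6% over all genes. The log2 difference was -1.16 (SE 0.71, adjusted p = 0.391), and with the block the SE was 0.31 and the adjusted p 0.0382. On 2 mice the blocked adjusted p was 0.0719 without mouse 1, 0.204 without mouse 2 and 0.015 without mouse 3.

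DTX4 and DTX1, both ubiquitin ligases of the deltex family, differed in opposite directions. DTX4 is known as a ligase for the kinase TBK1 of the interferon pathway. Its bulk libraries held 4.97, 4.66 and 7.49 CPM in mice 1, 2 and 3. Its LSC libraries held 41.9, 43.4 and 41.1 CPM, on 567, 684 and 564 reads. The LSC libraries were nearly level with each other and all far above bulk, by 8.44-fold, 9.31-fold and 5.50-fold in the 3 mice. The log2 difference was 2.91 (SE 0.34, 95% interval 2.14 to 3.69, adjusted p = 0.00276, 0.000709 with the block), or 7.53-fold. Between populations lay 97.9% of the variance of DTX4. The unblocked call was lost without both libraries of mouse 1 (adjusted p = 0.0916) or of mouse 2 (0.0606), where the difference itself was 2.83 and 2.76.

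DTX1, a gene that Notch signalling induces in lymphocytes, was lower in the LSC library of each mouse. Bulk libraries of mice 1, 2 and 3 held 4.62, 8.89 and 59.9 CPM, on 27, 105 and 936 reads. LSC libraries held 1.03, 1.78 and 0.438 CPM, on 14, 28 and 6 reads. The bulk library of mouse 3 stood far above all others and the LSC library of the same mouse was lowest, a 137-fold difference within that mouse against 4.47-fold and 5.01-fold in mice 1 and 2. The log2 difference of -3.83 (SE 0.94, 95% interval -5.94 to -1.71) just missed the threshold without a block (adjusted p = 0.0571) and passed with it (0.0229). Mouse 3 set much of its size. Without that mouse the value was -2.23, with an adjusted p of 0.175 unblocked and 0.00899 with the block. Without bulk replicate 1 the unblocked call was made (-4.60, adjusted p = 0.0495). With the block, the call was lost when mouse 2 was left out (adjusted p = 0.0625).

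**Figure D3:**
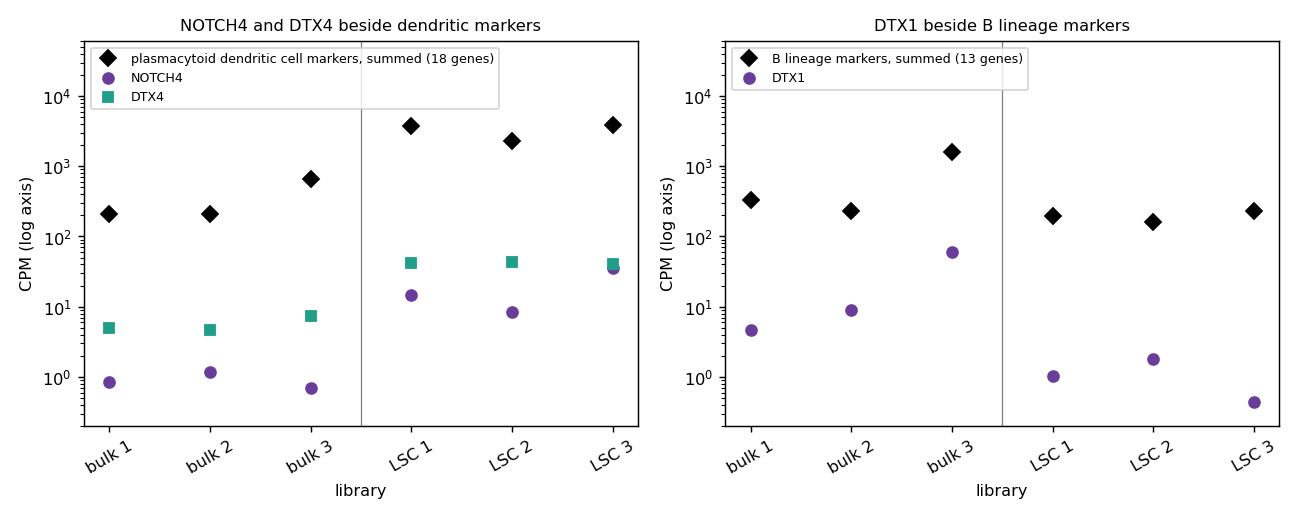
CPM on a log axis in each library (x axis) for NOTCH4 and DTX4 beside the summed CPM of 18 plasmacytoid dendritic cell markers (left) and for DTX1 beside the summed CPM of 13 B lineage markers (right). The dendritic sum is 208 to 664 CPM in bulk and 2314 to 3840 CPM in LSC; the B lineage sum is highest in bulk replicate 3, at 1621 CPM, where DTX1 is also highest.

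Markers of other cell types moved along with some of these genes. All 18 plasmacytoid dendritic cell markers had a row. Of these, 16 were higher in LSC and 0 lower, against 2.71% and 1.33% of all genes. With the block 17 were higher, against 8.25% of all genes. LILRA4, GZMB, PTGDS and PACSIN1 were under 1 CPM in every bulk library. They met the filter only through LSC. NRP1 and PLD4, under 1 CPM in bulk replicates 1 and 3, needed LSC to meet it as well. The calls of all these genes are descriptions only. IL3RA, which the sort used, is also on the list. The summed level of the 18 markers was 208 to 664 CPM in bulk and 2314 to 3840 CPM in LSC. That sum was higher in every LSC library than in every bulk library, as were NOTCH4, DTX4 and 13.2% of all genes. Within bulk, replicate 3 had the highest sum and the highest DTX4 (7.49 CPM) but the lowest NOTCH4 (0.704 CPM). Within LSC, NOTCH4 had the same order of libraries as the sum, and DTX4 the reverse order. LILRA4, a defining receptor of these cells, had no read in bulk replicates 1 and 2, and GZMB had none in bulk replicate 3. Over the 13 B lineage markers in the table (CR2 had no row), the sum was 329, 232 and 1621 CPM in bulk replicates 1, 2 and 3 and 158 to 231 CPM in LSC. Of the 12 tested, 0 were higher and 2 lower, PAX5 and EBF1, and 1 was higher and 7 lower with the block. Beside this and the following lists stand all genes, at 2.71% higher and 1.33% lower, or 8.25% and 7.71% with the block. VPREB3 had no read in LSC replicate 3. The bulk library with the highest B lineage sum was the library with the highest DTX1. Bulk replicates 1 and 2 ran the other way, with DTX1 at 4.62 and 8.89 CPM. In LSC replicates 1, 2 and 3 BLNK, which was higher with the block, held 103, 103 and 161 CPM of the sum. Erythroid markers were lower in 2 of 11 cases (9 with the block), with sums of 200 to 926 CPM in bulk and 58.3 to 236 CPM in LSC. Granulocyte markers were called in 0 of 12 cases by limma without the block and 0 by voom. At an unadjusted p under 0.05, 3 were lower (10.1% of all genes), and 7 were lower with the block. Monocyte markers were lower in 1 of 6 cases (3 with the block). Markers of T and NK cells (7), conventional dendritic cells (7) and megakaryocytes (5) gave 0 calls by limma or voom. Of the conventional dendritic cell markers, 2 were higher at an unadjusted p under 0.05 (10.2% of all genes), and 2 with the block. Endothelial and stromal genes, which include the usual site of NOTCH4 expression, had 2 of 9 in the table, and CDH5, KDR and TEK had no row. The part of these cell types in the Notch pathway differences was not tested.

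The genes whose profile over the 6 libraries came closest to each called member were sought among 7969 genes with a mean log2 CPM of at least 3. Likeness was the root mean square difference between log2 CPM values centred on their mean, and with 6 libraries of 2 populations many genes share a profile. For NOTCH4 these were RUNX2 (0.30), a runt family transcription factor, DNASE1L3 (0.47), a secreted nuclease, and IRF8 (0.50), a factor of dendritic cell development. For DTX4 they were TBC1D4 (0.10), a regulator of Rab proteins, the channel gene MCOLN2 (0.23) and NPC1 (0.25), a lysosomal cholesterol transporter. DTX1 came closest to BACH2 (0.43), EBF1 (0.69) and FOXO1 (0.75), which encode transcription factors of the B lineage. RBPJ came closest to LINC00852 (0.09), CHSY1 (0.09) and CEP85 (0.13), and MAML2 to ZNF354A (0.30), XRRA1 (0.31) and ZNF92 (0.31). IRF8 and EBF1 are also on the marker lists above. DTX1 and its nearest genes were all highest in bulk replicate 3, with BACH2 at a log2 CPM of 10.44 there and 4.33 to 5.96 in LSC.

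The rest of the pathway was described from lists of 78 further genes, of which 54 had a row and all 54 were tested. Of these, 3 were higher in LSC (5.56%) and 1 lower (1.85%), against 2.71% and 1.33% of all genes. The 3 include PTCRA, which met the filter on low values only through its LSC libraries. The median log2 difference was -0.10, with 26 genes above 0 and 28 below. With the block 7 were higher (13.0%) and 6 lower (11.1%), against 8.25% and 7.71% of all genes. Of these, 9 were not called in the main fit without the block, and 0 of the 9 kept the blocked call on every pair of mice. TLE3 lost it on all 3 pairs (adjusted p 0.114 without mouse 1, 0.114 without mouse 2 and 0.0727 without mouse 3). NEDD4, MIB1, AES, SPEN and NCOR1 lost it without mouse 1 and without mouse 2. POFUT1 lost it without mouse 1 (0.0956), and CTBP1 and TLE4 without mouse 2 (0.0562 and 0.0566). Without the block, CTBP1 and TLE4 were called with pseudocounts of 1 and 5 CPM. TLE4 was also called unblocked with quantile normalization and with scaling to reads outside MTRNR2L rows.

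Ligand genes were barely represented. Of 8 ligands and related proteins, 2 had a row. JAG1, the ligand Jagged 1, ranged from 2.24 to 4.15 CPM in bulk and from 1.46 to 10.8 CPM in LSC, with a log2 difference of 0.35 (SE 0.74, adjusted p = 0.822). DLK2, a protein related to Delta, had -0.76 (adjusted p = 0.509). JAG2, DLL1, DLL3 and DLL4 had no row.

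The enzymes that cut the receptor did not pass. Of 8 tested, 0 were called by limma, with the block or by voom. At an unadjusted p under 0.05 there was 1 lower and 0 higher, against 10.1% and 10.2% of all genes. ADAM10, the protease of the first cut after ligand binding, stood at 88.3, 88.2 and 130 CPM in bulk and at 64.0, 60.3 and 64.1 CPM in LSC. The 2 groups of ADAM10 libraries did not overlap, and the log2 difference was -0.68 (SE 0.28, adjusted p = 0.214, 0.0654 with the block). ADAM17, a related protease, had -0.31 (adjusted p = 0.638). NCSTN, the nicastrin subunit of gamma-secretase, which makes the final cut, had a log2 difference of 0.18 (SE 0.40) and is named after its value was seen.

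Among genes that add sugars to the receptor, all 4 tested had positive differences. POFUT1, the fucosyltransferase that Notch receptors need for ligand binding, stood at 16.9, 33.2 and 16.2 CPM in bulk and at 46.5, 55.2 and 57.6 CPM in LSC. The groups of POFUT1 did not overlap. Its log2 difference of 1.34 (SE 0.36) did not pass (adjusted p = 0.0757) and passed with the block (0.0149). POGLUT1, a glucosyltransferase, had 0.48 (adjusted p = 0.446). By limma 0 of the 4 were called, and 0 by voom. At an unadjusted p under 0.05, 1 was higher, against 10.2% of all genes.

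Regulators of endocytosis and ubiquitination gave 1 call among 10 genes, higher in LSC, against 2.71% of all genes. ITCH, a ligase that marks Notch for degradation, rose from 59.9, 61.3 and 63.6 CPM in bulk to 129, 129 and 127 CPM in LSC. Libraries of each population lay close together, and the log2 difference was 1.06 (SE 0.25, adjusted p = 0.0469, 0.00966 with the block). This call lay close to the threshold and was lost whenever any 1 of the 6 libraries was left out. It was also lost by voom on all libraries (adjusted p = 0.0536), which called 0 of the 10 genes. In all it was lost in 14 of 24 settings, at an adjusted p of up to 0.316. The blocked call was lost without mouse 1 (0.0809) or mouse 2 (0.0827). NEDD4, another ligase of that family, had a log2 difference of -1.18 (adjusted p = 0.105) and was lower with the block (0.0184). MIB1, the ligase that activates Notch ligands, had -0.92 (adjusted p = 0.118, 0.0375 with the block) and is named after its value was seen. NUMB, an inhibitor of Notch, had -0.21 (SE 0.29, adjusted p = 0.722), and is likewise named after its value was seen.

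Nuclear cofactors were taken as coactivators and corepressors. Of 7 coactivators, 0 were called by limma, with the block or by voom, and 0 had an unadjusted p under 0.05. KAT2A and CREBBP, which are acetyltransferases, had log2 differences of 0.68 (adjusted p = 0.466) and -0.32 (adjusted p = 0.535). MAML1 and MAML3, the other two Mastermind genes, had 0.21 (SE 0.34) and -0.20 (SE 0.51), named after their values were seen. Of 13 corepressor genes, 0 were called by limma or voom, 3 were higher and 3 lower (23.1% each) at an unadjusted p under 0.05, against 10.2% and 10.1% of all genes. The same numbers were called with the block, against 8.25% and 7.71%. CTBP1 stood at 18.1, 27.0 and 10.4 CPM in bulk and 41.2, 58.0 and 53.3 CPM in LSC (log2 difference 1.55, adjusted p = 0.0657, 0.0125 with the block). TLE4, a Groucho family repressor, stood at 194, 114 and 284 CPM in bulk and 101, 43.0 and 51.3 CPM in LSC (-1.61, adjusted p = 0.0753, 0.00834 with the block). With the block AES and TLE3 were also higher, at log2 differences of 1.29 and 1.51, and SPEN and NCOR1 lower, at -0.72 and -0.87, all named after their values were seen.

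**Figure D4:**
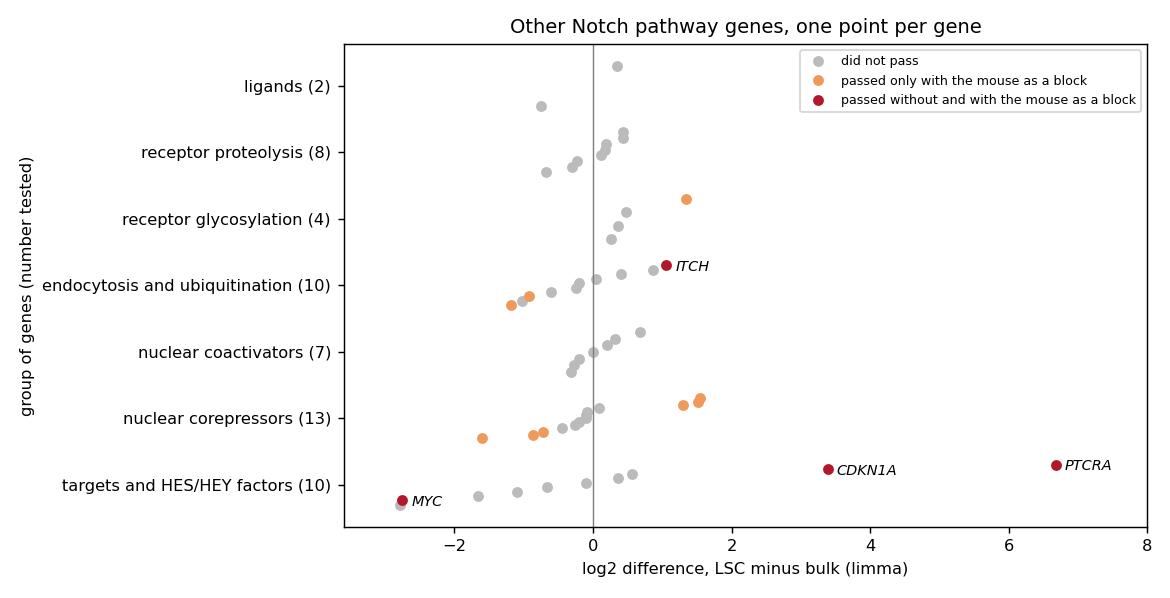
Log2 difference of LSC minus bulk (x axis) for 54 further Notch pathway genes in 7 groups (y axis, number tested in brackets), one point per gene. Dark red points passed limma's threshold with and without the block, orange points only with the block, both at the main filter and scaling. Groups scatter on both sides of 0 except for the 4 glycosylation genes, and the genes called with and without the block with the largest differences are PTCRA, CDKN1A and MYC; IL7R, which was not called, lies at -2.78.

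The last list held known targets of Notch signalling and factors of the HES and HEY families. Of its 10 genes tested, 2 were higher and 1 lower, against 2.71% and 1.33% of all genes. Voom called 1 higher and 1 lower, against 2.31% and 1.15% of all genes. The targets also respond to other signals, so their levels do not measure Notch activity. PTCRA, which encodes the alpha chain of the pre-T cell receptor and is also transcribed in plasmacytoid dendritic cells, had 1 read in bulk, in mouse 3. In LSC it had 113, 17 and 52 reads in mice 1, 2 and 3. The ratio of pooled reads was 141 (95% exact counting interval 24.95 to 5591, which covers counting error only), and the adjusted p was 0.0424 (0.0393 with no filter). PTCRA met the filter only through its LSC libraries, so this call is a description and adds no support to the count. It was lost in 11 of 23 settings, among them those without bulk replicate 1 or 2 or LSC replicate 1 or 3. CDKN1A, the cell cycle inhibitor p21, rose from 3.25, 7.54 and 3.45 CPM to 38.6, 85.4 and 29.8 CPM (log2 difference 3.39, SE 0.51, adjusted p = 0.00805). That call was lost only without both libraries of mouse 1 (adjusted p = 0.13) among 24 settings. MYC, a growth factor-responsive transcription factor, fell from 88.2, 45.0 and 67.9 CPM to 18.0, 11.5 and 4.23 CPM (-2.75, SE 0.53, adjusted p = 0.0235). The MYC call was lost in 6 of 24 settings, at an adjusted p of up to 0.127. It was lost without bulk replicate 1 or bulk replicate 3, and unblocked without any 1 of the mice. It was also lost on all libraries when limma was run without its trend option.

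Of the HES and HEY repressors, HES2 and HES6 alone had a row, and both are named after their values were seen. HES2 stood at 2.23, 5.50 and 5.44 CPM in bulk and 2.96, 8.75 and 8.24 CPM in LSC, with a log2 difference of 0.56 (SE 0.60, adjusted p = 0.642). HES6, which antagonizes HES1, stood at 2.91, 2.12 and 1.66 CPM in bulk and 1.40, 0.951 and 0.219 CPM in LSC. Its groups did not overlap, and the log2 difference of -1.67 (SE 0.89) did not pass (adjusted p = 0.325, 0.197 with the block). HES6 rests on 3 reads in LSC replicate 3. HES5, HES7, HEY1, HEY2, HEYL and NRARP had no row.

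The authors' deposited table gives its own comparison, coded as bulk minus LSC. In the authors' deposited table NOTCH4 and DTX4 had log2 fold changes of -4.18 and -2.91 with false discovery rates of 0.117 and 0.107. DTX1 had 3.54 and a rate of 0.276 in the authors' deposited table, and RBPJ, MAML2, NOTCH2 and NOTCH1 had rates of 0.485, 0.525, 0.633 and 0.900. No member passed 0.05 there. These values come from the same 6 libraries and are not separate evidence.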

How the data were processed

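Amplified cDNA (NuGEN Ovation) was sequenced, per the labels' protocols. Bowtie2, RSEM, edgeR and hg19 appear in the submitters' processing notes, without version or role. The authors' deposited values are log2 CPM with a small prior. The same deposited table gives their log2 fold change, p-value, false discovery rate and likelihood ratio score, per the file headers. All 6 sample columns share a floor (0.0197 CPM) and rise in steps. Dividing by the step gave reads, whole within 0.1 for 100% of values; CPM are these reads scaled, without the prior. Such reads are estimates, and intervals on them cover counting error only.

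Genes with at least 1 CPM in 3 libraries were kept (13755; 137 removed). The populations were tested against each other in R 4.3.3 with limma 3.58.1 (eBayes with trend, two-sided, Benjamini-Hochberg, threshold 0.05) on the deposited log2 values, without a block. Same-numbered libraries come from 1 mouse by design, and their deviations correlated at 0.33, 0.35 and 0.30, so the blocked value is given where it changes a call. Exact permutation of 3 against 3 cannot go below 0.1. Code was tested on simulated reads.

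Members and lists were chosen with earlier results of these data known. Named genes are the members, list genes that passed (or the 2 of smallest p), and the 3 nearest profiles per called member. Alternatives were other filters, pseudocounts (1 and 5 CPM), scalings, weights, voom, the block, and leaving out libraries or mice; the block on 2 mice was added after seeing the data. No coordinates or sequences are given, since the reference at hand is of the mouse. A result for 1 gene is not reported here.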

Additional observations from a re-analysis of the deposited data

How the results depend on the processing

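NOTCH4 and DTX4 were both called under all 12 settings that kept every library and with each library left out. By voom without the block NOTCH4 only just passed (adjusted p = 0.0499). With a mouse left out unblocked, 0 to 2 members were higher (mouse 1: 0; mouse 2: 1) and 0 lower. Over all 24 settings NOTCH4 ranged from 1.90 to 4.85 and DTX4 from 2.15 to 3.14. Members lower in LSC numbered 0 without a block but 1 with quantile normalization, 0 to 1 with a library left out (1 without bulk replicate 1), 3 with the replicate block, 3 with voom and the block, and 0 to 3 with the block on 2 mice (2 to 3 higher). NOTCH1 ranged from -0.64 to 0.21 with a library left out and turned positive without LSC replicate 1 (0.21) and without mouse 1 (0.18, with or without the block). Direction held in every setting for the other 6. DTX1 fell below the filter of 5 CPM and had no value there.

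Pathway genes higher numbered 3, but 7 with the replicate block, 1 with voom, 7 with voom and the block, and 0 to 2 with a library or mouse left out (2 to 6 with the block on 2 mice). Those lower numbered 1, but 2 with pseudocounts of 1 and 5 CPM, quantile normalization or scaling to reads outside MTRNR2L rows, 0 without trend, 6 with the block, 7 with voom and the block, 0 to 1 with a library or mouse left out and 1 to 7 with the block on 2 mice. Over all genes 373 were higher and 183 lower. These became 197 and 54 without trend, 1135 and 1060 with the block, and 1216 and 1217 with voom and the block. Genes lower numbered 302 and 280 with pseudocounts of 1 and 5 CPM and 282 with array weights. With a library left out the counts were 168 to 346 and 38 to 169, with a mouse left out 37 (mouse 1), 85 (mouse 2) and 252 higher and 0, 8 and 74 lower, and with the block on 2 mice 386 to 1747 higher and 344, 296 and 1567 lower. Fewer libraries enter such fits; for the other settings the cause was not tested. Scaling moved the median of all genes by less than 0.1. Depth limits NOTCH4 in bulk (5 to 14 reads) and DTX1 in LSC (6 to 28 reads).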
